A study of Mus musculus with 14 samples.

Results

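The nuclear factor I family is a group of 4 transcription factor genes in the mouse, Nfia, Nfib, Nfic and Nfix. They were taken by name from the deposited tables, which held 56941 gene IDs, and all 4 were found: Nfia (ENSMUSG00000028565) and Nfib (ENSMUSG00000008575) on chromosome 4, Nfic (ENSMUSG00000055053) on chromosome 10 and Nfix (ENSMUSG00000001911) on chromosome 8. All 4 passed the filter on low counts at both stages. The family was chosen by gene name, after being proposed on measured values of these data, the lower E12.5 counts of Nfib and Nfix in dcKO, so its E12.5 genotype values are given as a description with no test. Only the E18.5 genotype comparison was tested.

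Nuclear factor I proteins share a conserved DNA-binding region, bind DNA as homodimers or heterodimers, and recognise the half-site TTGGC, often as an inverted repeat in which TTGGC and GCCAA stand 5 bases apart. In the embryonic cerebral cortex Nfia, Nfib and Nfix are made by radial glia, the dividing neural progenitors, and by neurons. Mouse mutants of these genes are known for progenitors that stay longer in the cycling state, for delayed neuronal and glial differentiation, and for defects of the corpus callosum or hippocampus. Nfic is best known for tooth root development.

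The study crossed mice with floxed alleles of Sbno1, which encodes a helicase-like nuclear protein, and of Trp53, which encodes the tumour suppressor p53, to the Emx1-Cre driver. RNA was sequenced from telencephalon of embryos at day 12.5 of gestation (E12.5), with 3 double conditional knockout (dcKO) and 3 floxed (ff) libraries, and from cerebral cortex at E18.5, with 4 dcKO and 4 ff libraries. Floxed Sbno1 and Trp53 are common to all 4 groups, and dcKO adds Emx1-Cre. No group carried the driver without both deletions, or 1 deletion without the other, so effects of the driver, of Sbno1 and of Trp53 cannot be told apart. Emx1-Cre acts in dorsal telencephalic progenitors and their descendants. Interneurons, microglia and vessels of the dissected tissue largely lie outside that lineage. The labels do not say whether replicates came from separate embryos or litters, and the p-values then measure only the spread between these libraries.

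Summed expected counts were 42.0 to 82.0, in units of 1000000, in 12 libraries, against 5.98 in dcKO replicate 1 of E18.5 and 4.92 in ff replicate 1 of E12.5. All 7 dcKO libraries were male by chromosome Y and Xist counts, and 3 of 7 ff libraries were female. Sbno1 had 65.4 to 76.6 counts per 1000000 counts (CPM, scaled by the trimmed mean of M-values) in dcKO and 95.2 to 113 in ff at E12.5. At E18.5 it had 67.0 to 76.7 CPM in dcKO and 71.9 to 74.7 in ff, so whole-gene counts of that target did not separate the E18.5 groups. In transcripts per 1000000 (TPM), Sbno1 stood at 18.78 to 26.19 in libraries labelled dcKO and 14.72 to 18.43 in ff at E18.5. On that scale every library labelled dcKO was higher than every ff library, while the CPM ranges overlapped. The cause was not tested. Trp53 had 103 to 108 CPM in dcKO and 106 to 135 in ff at E12.5, and 58.4 to 72.7 CPM in libraries labelled dcKO and 72.0 to 77.5 in ff at E18.5, with ranges that overlapped at both stages. Whole-gene counts and TPM cannot check the deletion itself, because the sources used here do not give the floxed exons. The E18.5 groups are therefore named as their libraries are labelled. Emx1, the driver locus and a dorsal cortical marker, had 14.2 to 16.3 CPM in libraries labelled dcKO and 25.2 to 28.2 in ff at E18.5. Ttr, a choroid plexus gene, stood at 1.82 TPM in dcKO replicate 3 of E18.5, against up to 3203 TPM in the rest of that group and 1401 to 2454 TPM in ff.

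Promoters of Nfia and Nfix are shown because Nfix differed most between genotypes at E18.5 and Nfia was the gene whose counts and TPM went opposite ways. The sequences are RefSeq entries of build GRCm38.p6, each running from 250 bases before to 30 bases after an annotated transcript start, with copies of the half-site TTGGC or its reverse complement GCCAA in capitals. The build used by the authors is not given in the sources used here. The Nfia window lies at chr4:97581693-97581972 on the plus strand and the Nfix window at chr8:84772846-84773125 on the minus strand.
Nfia: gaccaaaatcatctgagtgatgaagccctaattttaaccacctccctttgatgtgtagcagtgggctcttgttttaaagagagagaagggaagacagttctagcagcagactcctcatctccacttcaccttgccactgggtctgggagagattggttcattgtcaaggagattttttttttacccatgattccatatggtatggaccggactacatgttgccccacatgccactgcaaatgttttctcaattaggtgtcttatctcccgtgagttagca
Nfix: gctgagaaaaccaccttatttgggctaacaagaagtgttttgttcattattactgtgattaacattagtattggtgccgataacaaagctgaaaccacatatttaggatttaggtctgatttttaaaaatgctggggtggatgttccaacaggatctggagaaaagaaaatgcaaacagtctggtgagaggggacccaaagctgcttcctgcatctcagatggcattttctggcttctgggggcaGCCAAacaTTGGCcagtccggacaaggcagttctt
The printed Nfix window, the one with the most half-sites among the Nfix windows, holds 2 of them. One begins 5 bases before the start and the other 3 bases after it. They are not arranged as the full inverted repeat. The other 3 Nfix windows hold 1, 1 and 0 half-sites, and the Nfia and Nfic windows hold 0 in their 300 bases. Across all 32851 promoter windows of that length, 46.7% hold at least 1 half-site on either strand, 14.4% hold at least 2, and the full inverted repeat is found in 0.0365%. These shares are per window and do not allow for printing the highest of several Nfix windows. A match is a description of letters and not of binding.

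At E12.5 the family stood lower in dcKO telencephalon than in ff telencephalon, most for Nfib and Nfix. Nfib had 178, 146 and 143 CPM in dcKO, against 359, 299 and 276 in ff. Nfix had 124, 99.6 and 98.1 CPM in dcKO, against 226, 204 and 173 in ff. The lowest ff library lay well above the highest dcKO library for both genes. Nfia had 80.5, 69.6 and 69.8 CPM in dcKO, against 119.9, 114 and 108 in ff. Its groups also stood clear of each other. Nfic had 34.2, 27.3 and 30.3 CPM in dcKO, against 34.3, 47.4 and 36.9 in ff, so that the closest libraries of the groups were almost level.

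The fitted E12.5 log2 differences, dcKO over ff, were -0.996 (SE 0.12) for Nfib, -0.90 (SE 0.12) for Nfix, -0.63 (SE 0.08) for Nfia and -0.39 (SE 0.13) for Nfic. CPM of all 4 genes was lower in every dcKO library than in any ff library, as it was for 13.2% of the 17853 genes in that comparison. Nothing is read from that share, since the E12.5 contrast helped choose the genes. In the authors' deposited table the E12.5 log2 fold changes were -0.97 for Nfib, -0.86 for Nfix, -0.60 for Nfia and -0.25 for Nfic. Within dcKO, replicate 1 was the highest library for all 4 genes. Within ff, replicate 3, the female library, was the lowest for Nfia, Nfib and Nfix.

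**Figure D1:**
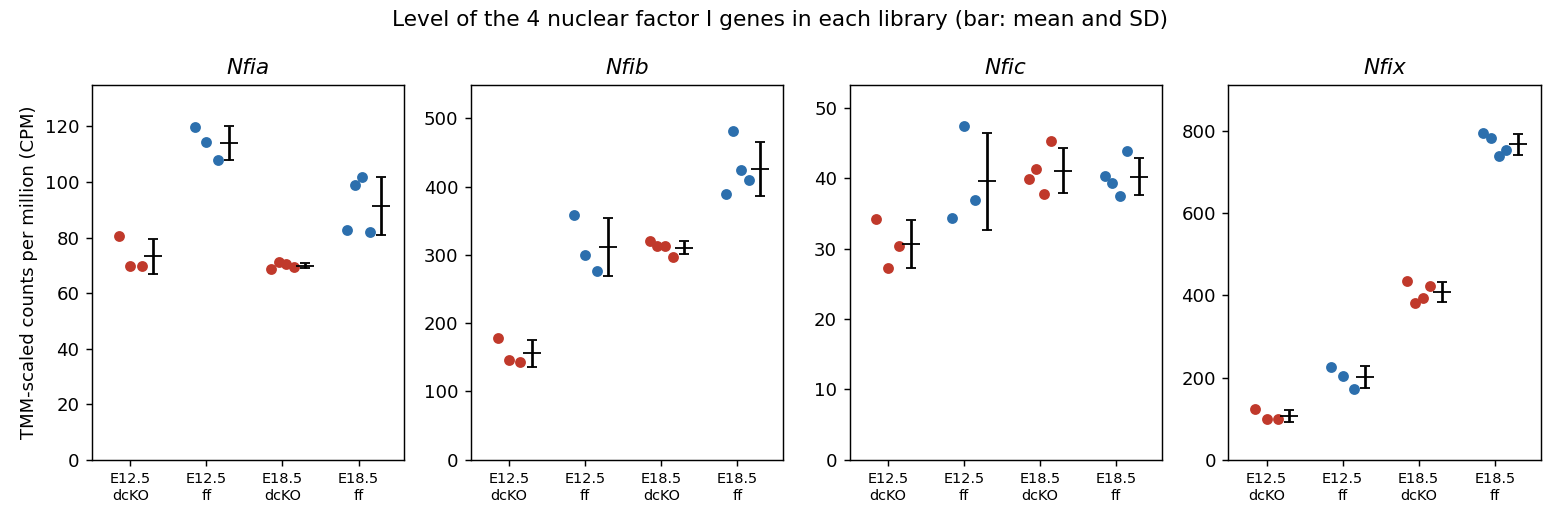
CPM of each gene in every library, in 1 panel per gene, with dcKO left of ff at each stage and a bar at the group mean ± SD (n = 3 at E12.5, n = 4 at E18.5). At E18.5 Nfix sits between 381 and 434 CPM in libraries labelled dcKO and between 739 and 794 CPM in ff, while the Nfic libraries of both groups overlap.

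At E18.5 counts of Nfix, Nfib and Nfia fell in the libraries labelled dcKO, and Nfic did not pass the test. Nfix changed most. It had 434, 381, 393 and 422 CPM in libraries labelled dcKO, against 794, 782, 739 and 753 in ff. The 2 ranges were far apart, and the spread within each was small. Nfix averaged 407 ± 24.7 CPM in libraries labelled dcKO and 767 ± 25.4 in ff (SD, n = 4 each), a log2 difference of -0.91 (SE 0.06; edgeR quasi-likelihood F test, adjusted p = 8.34e-07). The dcKO level was 0.531 of the ff level. Nfix protein is known to drive neural progenitors toward differentiation in the embryonic hippocampus and cortex.

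Nfib, which is needed for callosal axons and hippocampal glia in mice, fell less. It had 320.2, 313, 312 and 297 CPM in libraries labelled dcKO, against 389, 482, 424 and 410.1 in ff. Every library labelled dcKO was below every ff library. The averages were 311 ± 9.91 CPM in libraries labelled dcKO and 426 ± 39.8 in ff (SD, n = 4 each), with a log2 difference of -0.46 (SE 0.07; edgeR adjusted p = 0.000264).

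Nfia, which acts in the switch of progenitors from neuron to astrocyte production, fell in counts but not in TPM. Counts gave 68.7, 71.0, 70.4 and 69.5 CPM in libraries labelled dcKO, against 82.8, 99.0, 102 and 82.1 in ff. The dcKO libraries were nearly identical and lay below all ff libraries, which were spread more widely. The averages were 69.9 ± 1.04 CPM in libraries labelled dcKO and 91.5 ± 10.5 in ff (SD, n = 4 each), with a log2 difference of -0.39 (SE 0.07; edgeR adjusted p = 0.00147).

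Nfic had 39.9, 41.3, 37.8 and 45.3 CPM in libraries labelled dcKO, against 40.3, 39.4, 37.5 and 43.8 in ff. The groups overlapped throughout. Its log2 difference was 0.03 (SE 0.07; edgeR adjusted p = 0.763), with an approximate 95% interval from -0.11 to 0.17.

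The 3 of 4 genes called lower compare with 16.6% of the 17974 genes tested at E18.5 called lower and 32.2% called in either direction, so a call alone is common at this stage. CPM lay lower in all libraries labelled dcKO than in all ff libraries for the same 3 genes and for 17.2% of all genes. The median log2 difference over all genes was 0.03. With male libraries alone, 4 dcKO against 2 ff, the log2 differences were -0.94 for Nfix (edgeR adjusted p = 2.47e-05), -0.42 for Nfib (0.00138) and -0.43 for Nfia (0.00312). In the authors' deposited table the E18.5 log2 fold changes were -0.93 for Nfix, -0.46 for Nfib, -0.38 for Nfia and 0.01 for Nfic.

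The genotype difference of Nfix was of like size at both stages, with an E18.5 minus E12.5 change of -0.01 in log2. In counts it was smaller at E18.5 by 0.54 for Nfib and by 0.25 for Nfia. For Nfic the change in counts was 0.42, across 0. In log2(TPM + 1) the Nfia difference was -0.74 at E12.5 and 0.21 at E18.5. Tissue also differed between the stages, telencephalon at E12.5 and cortex at E18.5. The changes between stages were not tested, because the E12.5 values helped choose the genes.

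Per length, the picture differed for Nfia. TPM divides each count by the effective length that RSEM assigned to the gene in that library. Nfia had 24.9, 29.7, 26.8 and 31.2 TPM in libraries labelled dcKO, against 23.8, 24.6, 21.8 and 26.4 in ff at E18.5. The groups overlapped, with libraries labelled dcKO mostly above ff. The log2(TPM + 1) difference was 0.21 (SE 0.09; limma adjusted p = 0.0961), while the median over all genes on that scale was 0.12. Nfia was thus not called in TPM, and its direction was the opposite of that in counts.

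Nfix and Nfib kept their direction in TPM. Nfix had 202, 181, 188 and 211 TPM in libraries labelled dcKO, against 354, 353, 303 and 338 in ff. The log2(TPM + 1) difference of Nfix was -0.78 (SE 0.07; limma adjusted p = 0.000188). Its groups remained wide apart on this scale. Nfib had 81.3, 76.8, 79.0 and 79.2 TPM in libraries labelled dcKO, against 90.4, 114, 89.5 and 96.2 in ff, a difference of -0.29 (SE 0.07; limma adjusted p = 0.0189). Nfic had 28.9, 18.3, 20.3 and 20.7 TPM in libraries labelled dcKO, against 19.1, 19.6, 14.1 and 20.97 in ff, and its groups overlapped. The 0.24 difference of Nfic (SE 0.15) was not called (limma adjusted p = 0.263), and the shallow library, dcKO replicate 1, gave its highest value.

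**Figure D2:**
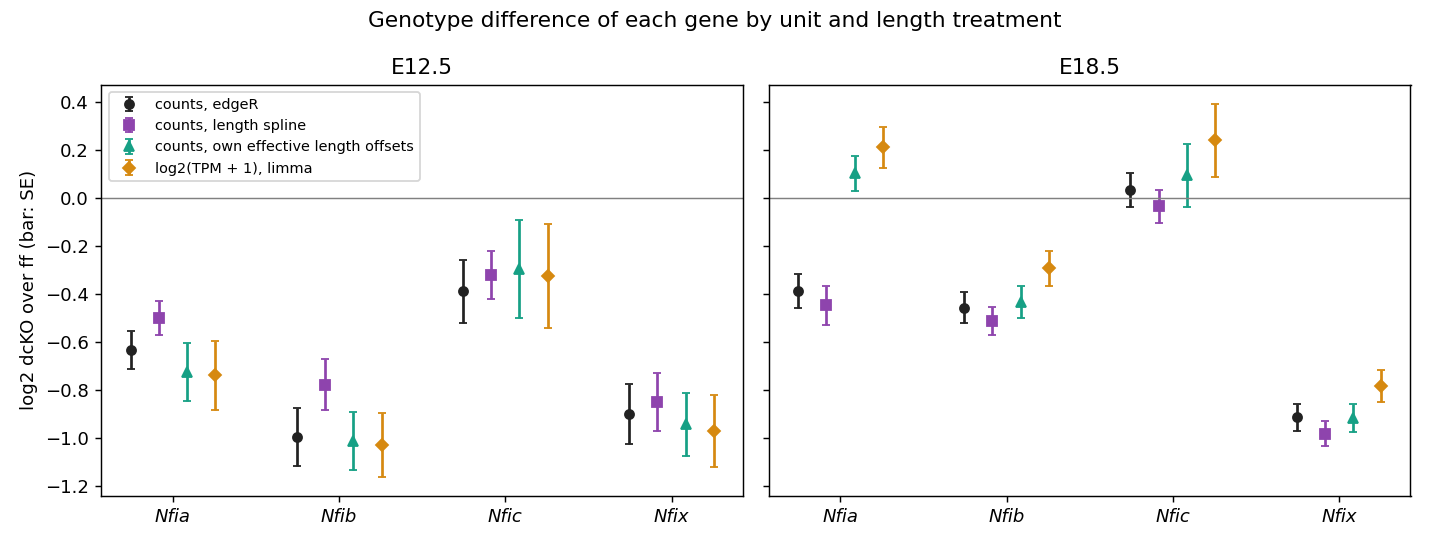
Log2 difference of dcKO over ff for each gene at E12.5 (left) and E18.5 (right), from counts, from counts with a spline on transcript length, from counts with each library's own effective length as an offset, and from log2(TPM + 1); bars are SE. At E18.5 Nfia stands at -0.39 in counts, 0.10 with its own length and 0.21 in TPM, while Nfix stays between -0.98 and -0.78.

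The difference between the scales lay mostly in the length of Nfia transcripts that RSEM estimated. The rest went with the shift of all genes, whose median was 0.12 in log2(TPM + 1) and 0.03 in counts. The ratio of count to TPM, set against genes with a single annotated transcript, gives an abundance-weighted transcript length. For Nfia it was 5.51, 4.66, 5.28 and 4.60 kb in libraries labelled dcKO, against 6.37, 7.51, 8.15 and 5.80 kb in ff at E18.5. All dcKO lengths were below all ff lengths, with the nearest pair close. The means were 5.01 ± 0.45 kb in libraries labelled dcKO and 6.96 ± 1.07 kb in ff (SD, n = 4 each), a log2 difference of -0.47 in effective length. An exact two-sided permutation test gave p = 0.0286, the smallest that 4 against 4 libraries allow, and 0.114 after adjustment over the 4 genes. Across all 17551 genes with a length, limma gave Nfia an adjusted p of 0.355, so the shorter estimate did not pass the threshold, which 1 gene, 0.0057%, did.

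That direction was uncommon among genes. Lengths were shorter in every library labelled dcKO than in every ff library for 2.36% of those genes, and longer in every one for 13.4%. A decrease at least as large as that of Nfia was seen in 0.45%. With each library's own effective length as an offset in the count model, the Nfia log2 difference at E18.5 was 0.10 (SE 0.07; edgeR adjusted p = 0.31). Whether the shorter estimate reflects another mix of Nfia transcripts or uneven coverage along the gene was not tested.

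The other 3 genes had nearly level lengths at E18.5. Nfix averaged 4.21 ± 0.10 kb in libraries labelled dcKO and 4.23 ± 0.07 kb in ff (SD, n = 4 each; exact two-sided permutation p = 0.886). Nfib averaged 7.77 ± 0.11 kb in libraries labelled dcKO and 7.95 ± 0.19 kb in ff (exact p = 0.343). Nfic averaged 3.89 ± 0.77 kb in libraries labelled dcKO and 4.11 ± 0.40 kb in ff (exact p = 0.657). At E12.5 Nfia had 5.45, 5.74 and 6.43 kb in dcKO, against 6.15, 4.99 and 5.39 kb in ff, so the E12.5 groups overlapped and the means ran the other way. The GENCODE M21 annotation lists 8 Nfia transcripts of 0.821 to 9.53 kb with a median of 9.08 kb, 12 of Nfib up to 9.12 kb, 7 of Nfic up to 6.24 kb and 8 of Nfix up to 5.48 kb.

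**Figure D3:**
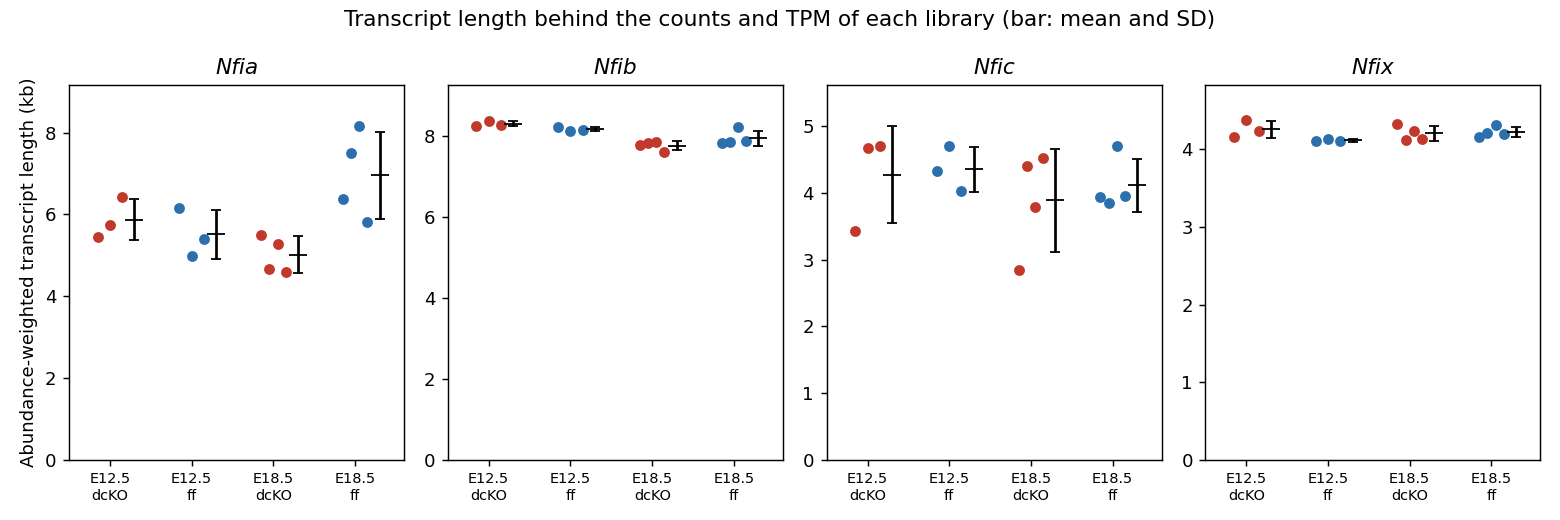
Approximate abundance-weighted transcript length in kb of each gene in every library, dcKO left of ff at each stage, with a bar at the group mean ± SD. Nfia at E18.5 lies between 4.60 and 5.51 kb in libraries labelled dcKO and between 5.80 and 8.15 kb in ff, and the other 3 genes overlap between those groups.

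Exons of 3 of the genes overlap a gene on the opposite strand in that annotation, and the strand used in counting is not given in the sources used here. The shared stretches are 4 bases with E130114P18Rik for Nfia, 72 with Gm16104 for Nfic, and 137 with G430095P16Rik and 4 with Lyl1 for Nfix. Nfib shares no exon base with another gene. The partners of Nfix had 5.07 (Lyl1) and 1.18 TPM (G430095P16Rik) on average at E18.5, far below Nfix itself.

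Levels between the genes are compared in TPM. Nfix was the most abundant family member in all 4 groups, followed by Nfib, Nfia and Nfic. At E12.5 the means in dcKO were 44.4 ± 7.87 TPM for Nfix, 32.3 ± 4.78 for Nfib, 21.9 ± 3.94 for Nfia and 13.1 ± 4.29 for Nfic (SD, n = 3). In ff they were 87.9 ± 13, 66.8 ± 9.25, 37.0 ± 4.42 and 16.3 ± 2.25 TPM in the same order. Neighbours in this order did not overlap in dcKO, while Nfix and Nfib ranges overlapped in ff. At E18.5 the means in libraries labelled dcKO were 196 ± 13.6 TPM for Nfix, 79.1 ± 1.85 for Nfib, 28.1 ± 2.82 for Nfia and 22.1 ± 4.67 for Nfic (SD, n = 4). In ff they were 337 ± 23.7, 97.6 ± 11.5, 24.1 ± 1.92 and 18.4 ± 3.01 TPM. Nfia and Nfic overlapped in libraries labelled dcKO, where replicate 1 had more Nfic than Nfia, and did not overlap in ff.

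Summed TPM of the 4 genes was 99.1 to 136 in dcKO and 182 to 223 in ff at E12.5, a ratio of means of 0.537. At E18.5 it was 306 to 342 in libraries labelled dcKO and 429 to 512 in ff, a ratio of 0.681. The sums did not overlap at either stage. Nfix made up 39.4% to 40.5% of the family's TPM in dcKO and 40.4% to 44.1% in ff at E12.5. At E18.5 its share was 59.2% to 61.7% in libraries labelled dcKO and 69.0% to 72.7% in ff, so Nfix formed more of the family at the later stage in both genotypes. The share of Nfib at E18.5 was 23.1% to 25.1% in libraries labelled dcKO and 18.5% to 22.3% in ff. Nfia made up 7.38% to 9.72% in libraries labelled dcKO and 4.81% to 5.48% in ff. Nfic made up 5.99% to 8.56% of it in libraries labelled dcKO and 3.28% to 4.36% in ff.

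**Figure D4:**
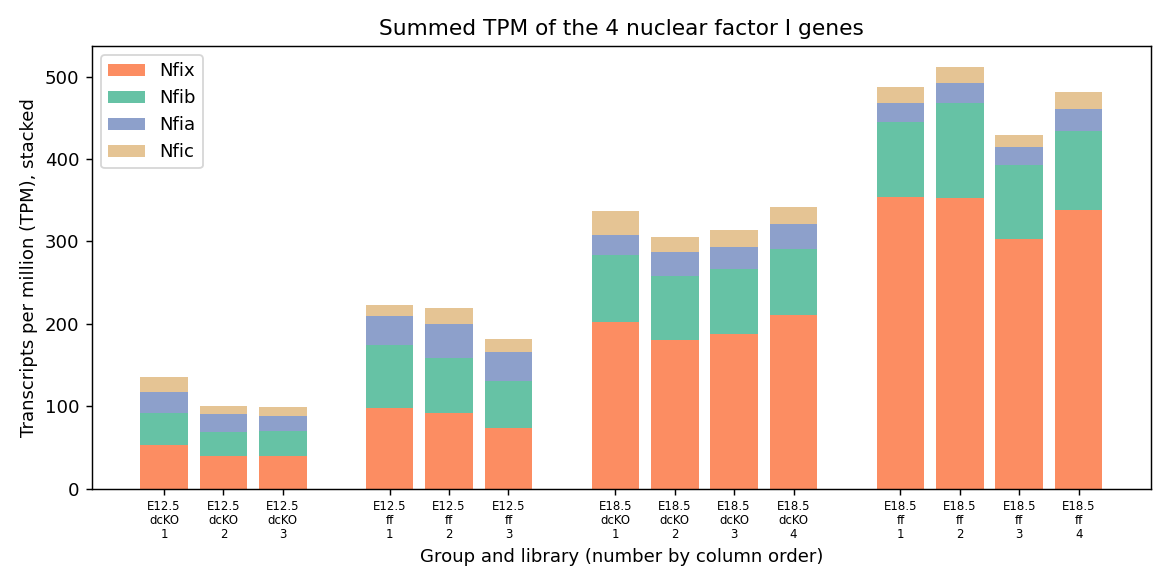
Stacked TPM of the 4 genes in every library, with dcKO left of ff at each stage. The column is 99.1 to 136 TPM high in dcKO and 182 to 223 in ff at E12.5, and 306 to 342 in libraries labelled dcKO and 429 to 512 in ff at E18.5, with Nfix the largest piece in each.

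Between stages the genes parted. In a joint fit of the 14 libraries, the E18.5 minus E12.5 log2 difference of Nfix was 1.90 (SE 0.10) in dcKO and 1.96 (SE 0.10) in ff. That of Nfib was 0.98 (SE 0.10) in dcKO and 0.48 (SE 0.10) in ff. Nfix thus differed between stages to a like degree in both genotypes, and Nfib more in dcKO. Nfic stood at 0.41 (SE 0.11) in dcKO and 0.03 (SE 0.11) in ff, and Nfia at -0.08 (SE 0.08) in dcKO and -0.29 (SE 0.08) in ff. The median gene stood at 0.01 in dcKO and -0.00 in ff, and 17.7% and 16.9% of 19327 genes were at least 2-fold higher at E18.5. The stages came as separate tables and from different tissue, telencephalon and cortex, so stage and dissection cannot be told apart and no test was made.

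The family is known to act on progenitor and glial genes, and a list of 18 genes reported as its targets in mouse brain was examined. This list and the other gene lists were chosen with earlier results of these data known. Their calls are therefore set beside the shares over all genes as a description. Of 17 targets tested at E18.5, 7 were higher and 2 lower in libraries labelled dcKO. Their median log2 difference was 0.08, against 0.03 over all genes, of which 15.6% were called higher and 16.6% lower. Sox9, a progenitor and gliogenic factor, averaged 30.4 TPM in libraries labelled dcKO and 15.4 in ff (log2 difference 0.86 in counts, edgeR adjusted p = 3.64e-06). Hes1, a Notch effector that keeps progenitors dividing, averaged 23.5 TPM in libraries labelled dcKO and 11.9 in ff (0.77, edgeR adjusted p = 0.000289). Ezh2, the methyltransferase of Polycomb repressive complex 2, rose by 0.23 (edgeR adjusted p = 0.0206).

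The other risers were Efnb1, a guidance ligand (0.55), Nes, a progenitor filament (0.45), Bbx (0.46) and Aqp4, an astrocyte water channel (0.50), with edgeR adjusted p of 6.89e-05, 0.000514, 0.00151 and 0.011. The 2 that fell were Cntn2, an axonal adhesion molecule (-0.69, edgeR adjusted p = 0.000189), and Mmd2 (-0.30, 0.0264). Gfap, the astrocyte filament gene, averaged 11.2 TPM in libraries labelled dcKO and 10.6 in ff and was not called (edgeR adjusted p = 0.827). At E12.5 none of 16 tested targets was called by edgeR, where 0.19% of genes were called in either direction, and their median log2 difference was -0.05. Of those 16 targets 4 had an unadjusted p under 0.05 by edgeR, and the DESeq2 Wald test called 1 higher and 1 lower. Over all 17853 genes tested at E12.5, 3433 had such a p by edgeR. The DESeq2 Wald test called 305 of all genes higher and 898 lower.

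Of 8 genes listed as regulators or partners of the family, 5 rose and 2 fell at E18.5, with a median log2 difference of 0.33. Over all genes 15.6% were called higher and 16.6% lower, with a median of 0.03. Pax6, a dorsal progenitor factor, averaged 50 TPM in libraries labelled dcKO and 24 in ff (log2 difference 0.95, edgeR adjusted p = 3.41e-06). Notch1, the receptor, averaged 26.1 TPM in libraries labelled dcKO and 13 in ff (0.89, edgeR adjusted p = 3.64e-06). Its ligand Dll1 rose by 0.41 (edgeR adjusted p = 0.000514) and the Notch effector Hes5 by 0.26 (0.0313). Sox9 stands on this list too. Pou3f2, a neuronal POU factor also known as Brn2, fell by 0.69 (edgeR adjusted p = 1.03e-05). Olig2, an oligodendrocyte and progenitor factor, fell by 0.32 (edgeR adjusted p = 0.00185), and Zbtb20 stood at -0.11 and was not called.

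**Figure D5:**
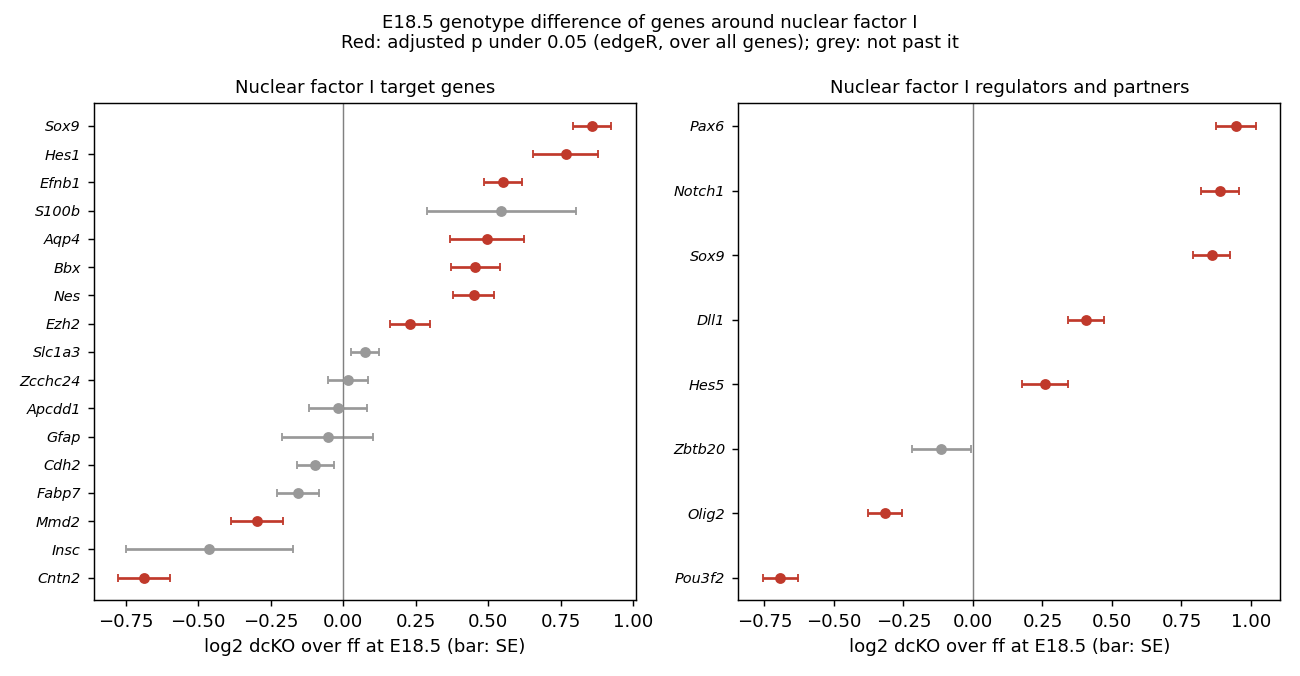
E18.5 log2 difference, libraries labelled dcKO over ff, of the listed targets and of the regulators or partners, 1 point per tested gene with its SE; red marks an edgeR adjusted p under 0.05. Of the targets 7 lie right and 2 left of 0 in red, with Sox9 at 0.86 and Cntn2 at -0.69; of the regulators 5 lie right and 2 left, with Pax6 at 0.95 and Pou3f2 at -0.69.

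Markers of several cell types moved with the family at E18.5, and in bulk tissue fewer cells of a type and less RNA per cell cannot be told apart. In the marker lists, rises and falls are edgeR calls on counts, where 15.6% of all genes were called higher and 16.6% lower. Some genes stand on more than 1 list, so the lists are not separate observations. Among them, Nes and Hes1 are targets and radial glia markers, and Pax6 and Hes5 are regulators or partners and radial glia markers. Pou3f2 is also an upper-layer marker and Sox9 also an astrocyte marker. Sums are in TPM and weigh abundant genes most. The median gene was 0.12 higher in libraries labelled dcKO in log2(TPM + 1), against 0.03 in counts. Of 9 pan-neuronal genes 8 fell and 0 rose (median log2 difference -0.35), with a summed level of 3980 to 4530 TPM in libraries labelled dcKO and 5770 to 5970 in ff. Stmn2 and Tubb3, neuronal cytoskeleton genes, fell by 0.68 and 0.64 (edgeR adjusted p = 7.48e-06 and 2.83e-05). Of 7 upper-layer markers 4 fell and 1 rose (352 to 384 TPM in libraries labelled dcKO, 473 to 516 in ff), with Dok5 at -1.71. Of 8 deep-layer markers 6 fell and 2 rose (427 to 492 TPM in libraries labelled dcKO, 503 to 573 in ff), with Crym at -1.44 and Ldb2 at -0.71. The 6 cortical identity markers held 3 that fell and 1 that rose, with Neurod6 at -1.29 and Emx1 at -0.81, and summed to 684 to 757 TPM in libraries labelled dcKO and 920 to 1040 TPM in ff. Emx1 is also the driver locus, and dcKO alone carried Emx1-Cre, so an effect of the driver on its counts cannot be told apart.

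Progenitor and ventral markers stood the other way. Of 12 radial glia markers 7 rose and 2 fell (2720 to 3010 TPM in libraries labelled dcKO, 2540 to 2650 in ff), with Pax6 (0.95) and Sox2 (0.72) at the lowest p. The median log2 difference of that list in counts was 0.22. Of 7 intermediate progenitor markers 5 rose and 1 fell (195 to 215 TPM in libraries labelled dcKO, 140 to 173 in ff), with Gadd45g at 1.13 and Neurod1 at -0.87. All 10 ventral telencephalon and interneuron markers rose (715 to 927 TPM in libraries labelled dcKO, 387 to 453 in ff), with Slc32a1 at 0.89 and Gad2 at 0.83. Of 8 astrocyte markers 3 rose and 0 fell (341 to 410 TPM in libraries labelled dcKO, 286 to 313 in ff), with Sox9 and Gja1 (0.52).

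Of 6 microglia and endothelial markers 3 rose and 0 fell (193 to 257 TPM in libraries labelled dcKO, 139 to 207 in ff), with Csf1r at 0.52 and C1qa at 0.57. Of 5 tested thalamus and hypothalamus markers 3 rose and 0 fell (22.1 to 24.7 TPM in libraries labelled dcKO, 13.5 to 17.8 in ff), with Tcf7l2 at 0.75 and Gbx2 at 0.79. None of 5 tested erythroid markers was called by edgeR, with 3 at an unadjusted p under 0.05, while the DESeq2 Wald test called 4 of them lower and limma-voom all 5. Over all 17974 genes 7726 had such a p by edgeR. The DESeq2 Wald test called 3329 of all genes lower and limma-voom 3084. Erythroid genes summed to 594 to 2760 TPM in libraries labelled dcKO and 3650 to 6190 in ff. None of 6 choroid plexus or 5 meningeal markers was called by edgeR, DESeq2 or limma-voom, and 0 had an unadjusted p under 0.05 by edgeR. Choroid plexus genes summed to 9.96 to 3320 TPM in libraries labelled dcKO and 1460 to 2540 in ff, and meningeal genes to 257 to 376 TPM in libraries labelled dcKO and 161 to 316 in ff. No tested marker of any list was listed at 0 TPM in a library. Without dcKO replicate 3, where Ttr was near 0, the radial glia markers held 5 that rose and 1 that fell, the upper-layer markers 0 and 4, the ventral markers 9 and 0, and the thalamus and hypothalamus markers 2 and 1. In the same fit 1 choroid plexus marker rose and 0 fell, the cortical identity markers held 2 that rose and 3 that fell, and the regulators or partners 4 and 2. The part of any of these cell types in the lower Nfix, Nfib and Nfia counts was not tested.

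At E12.5, where edgeR called 0.151% of genes lower, it called lower 2 of 6 cortical identity, 2 of 8 deep-layer and 1 of 7 intermediate progenitor markers. It called none of 9 pan-neuronal or 12 radial glia markers in either direction. The cortical identity calls were Emx1, where an effect of the driver cannot be told apart, and Tbr1. Tbr1 stands on the deep-layer list too and was counted in both. Of the pan-neuronal and radial glia markers, 5 and 4 had an unadjusted p under 0.05 by edgeR, and the DESeq2 Wald test called 1 and 2 higher. By edgeR 5 cortical identity, 4 deep-layer and 5 intermediate progenitor markers had such a p, and the DESeq2 Wald test called 4, 4 and 5 lower. Over all 17853 genes 3433 had such a p, and the DESeq2 Wald test called 305 higher and 898 lower. Pan-neuronal genes summed to 2950 to 3250 TPM in dcKO and 2600 to 3210 in ff, and radial glia genes to 3180 to 3260 TPM in dcKO and 2990 to 3270 in ff. The sums of both lists overlapped between the groups. Sums of 4 other marker lists were lower in every dcKO library than in any ff library. Cortical identity genes summed to 630 to 700 TPM in dcKO and 840 to 1010 in ff, and deep-layer genes to 210 to 247 TPM in dcKO and 277 to 330 in ff. Intermediate progenitor genes summed to 396 to 406 TPM in dcKO and 466 to 542 in ff, and astrocyte genes to 198 to 218 TPM in dcKO and 232 to 253 in ff. The median log2 difference in counts was -0.67 for cortical identity, -0.24 for deep-layer and -0.35 for intermediate progenitor genes. It was -0.02 for astrocyte genes, against 0.01 over all genes, and edgeR called 0 astrocyte genes, so the lower astrocyte sum was not a fall across that list. The part of these cell types in the E12.5 values of the family was not tested.

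Genes with the pattern most like each family member were sought by the root mean square difference of mean-centred log2 CPM over the 14 libraries, among 13634 genes. For Nfix the nearest included Lancl3 (0.19) and Bhlhe22, a transcription factor of cortical projection neurons (0.22), where the median gene lay at 1.11. Bhlhe22 averaged 109 CPM in libraries labelled dcKO and 247 in ff at E18.5. For Nfib they were Kcnh7, a potassium channel gene (0.15), Nckap5 (0.16) and Dst, which encodes dystonin (0.17), against a median of 0.62. For Nfia they were Med1, a Mediator subunit (0.11), Eif4b, a translation initiation factor (0.12), and Pcif1 (0.12), against 0.41. For Nfic they were Zdhhc8 (0.09), Fbrs (0.10) and Ncoa2 (0.10), against 0.38. By this measure family members were less alike than these. The nearest pair was Nfia and Nfic at 0.32 and the farthest Nfia and Nfix at 1.08. The measure also reflects how much a gene varied, so genes that vary little lie near each other whatever their patterns. The SD over the libraries was 0.30 for Nfia, 0.22 for Nfic, 0.56 for Nfib and 1.12 for Nfix. Ranked by nearness to Nfix, Nfib came closest in the family, at rank 1034 of 13634. The 14 libraries fall into 4 groups by stage and genotype, so this likeness also reflects differences between the groups and is a description.

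No tested protein-coding neighbour of the family on its chromosomes was called lower at E18.5, where 16.6% of all genes were called lower and 15.6% higher. Mpdz and Zdhhc21, on either side of Nfib, rose by 0.25 and 0.24 at E18.5 (edgeR adjusted p = 0.0174 and 0.034), where Nfib fell. At E12.5 their log2 differences were -0.48 and -0.34, in the direction of Nfib. Trmt1 (-0.07, edgeR adjusted p = 0.481) and Dand5 (0.26, 0.0941), which flank Nfix, and Tm2d1 (-0.23, 0.0606), beside Nfia, were not called. Smim24 (-0.23, edgeR adjusted p = 0.565) and Celf5 (0.01, 0.886), which flank Nfic, were not called, and Gm12695, on the other side of Nfia, was not tested.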

How the data were processed

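Polyadenylated RNA of 14 libraries was sequenced, with stranded TruSeq libraries made from 1.0 µg of RNA per sample, as the labels' protocols state. The submitters' processing notes name Trim Galore, STAR, RSEM and DESeq2 without versions. Genome build, annotation and counting strand are not given in the sources used here. RSEM's expected counts per gene were deposited for each library without normalization. Deposited TPM, also from RSEM, divide by effective length and sum to 1000000 per library. A further deposited table per stage, from DESeq2 per the file headers, holds log2 fold changes, a standard error score, p-values and a mean normalized signal, and its fold changes alone are printed. Their direction is not in the headers and is read as dcKO over ff, because they have the sign of the counts.

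After rounding, expected counts were tested with edgeR 4.0.16 in R 4.3.3. The steps were filterByExpr, TMM scaling and a robust quasi-likelihood F test of genotype, two-sided, with 1 fit per stage, Benjamini-Hochberg adjustment over all its genes and a threshold of 0.05. CPM were scaled within a stage, and the stage difference came from 1 fit of the 4 groups. The approximate 95% interval is 1.96 SE on either side. TPM and effective lengths were tested with limma 3.58.1. DESeq2 1.42.0, other scalings, filters, sex, length corrections and omission of each library were the alternatives, and list counts without E18.5 dcKO replicate 3 or the shallow library were added after seeing the data. Effective length was the count divided by TPM, relative to the library's median ratio over genes with a mean count of at least 10, and was turned into kb with genes that have 1 transcript in GENCODE M21. That annotation and RefSeq GRCm38.p6 gave transcripts, neighbours and promoters, with no Nfib promoter.

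Each of the 14 table columns fits 1 sample title by stage, number and genotype word, where dfl was read as ff, and 0 columns of sample values were unused. Yet 11 of 14 descriptions pair a library name with a title of another stage or genotype. Groups therefore rest on the column names and titles. Replicate numbers follow column order. Members and gene lists were chosen with earlier results of these data known. Named genes were the 4 members, the 3 nearest to each by likeness (log2 CPM, prior count 2, mean CPM of 1 or more, no predicted gene), called genes of the target and regulator lists, and the 2 with the lowest p of every other list; a few genes that the rule names are not reported here. Sbno1, Trp53, Emx1, Tbr1, Ttr, Gfap, Zbtb20 and the neighbours stand outside that rule and were chosen after their values were seen. The steps were tested on simulated data. Precision is lowest in the 2 shallow libraries, with 5.98 and 4.92 times 1000000 counts.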

Additional observations from a re-analysis of the deposited data

Results flagged for a closer look

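Samples far from the rest of their group are expected by chance in about 1 of 20 groups under the rule used. The log2 effective length of Nfib in ff replicate 3 of E18.5 was 1.819, apart from the other 3 ff libraries, which lay close together. The log2 effective length of Nfic in the same library was 0.9889, again above the other 3. Both values stood out because the gap to the nearest library took up most of the range of the group. Nfia was also longest in that library, at 8.15 kb.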

How the results depend on the processing

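Lower counts of Nfix and Nfib at E18.5 held their direction and call under all 22 alternatives each, with Nfix between -0.98 and -0.78 and Nfib between -0.52 and -0.29 in log2. Among the 22, the fit without the shallow library and the fit without dcKO replicate 1 are the same. Nfia reversed in the 3 alternatives that used its own length, at 0.21 with log2(TPM + 1), 0.22 with log2(TPM + 0.1) and 0.10 with own length offsets, an alternative added after its counts and TPM were seen to differ. Nfic, never called, was -0.0083 in 1 fit of 14 libraries and -0.034 with the length spline. Leaving out each library gave -0.46 to -0.35 for Nfia, -0.52 to -0.41 for Nfib, -0.023 to 0.073 for Nfic, -0.95 to -0.88 for Nfix, and 4417 to 5723 genes called. In effective length it gave -0.55 to -0.39 for Nfia, -0.031 to -0.0096 for Nfib, -0.18 to 0.056 for Nfic and -0.012 to 0.013 for Nfix. Of the targets 7 higher and 2 lower became 6 and 2 without dcKO replicate 3 and 7 and 1 without the shallow library. Genes called higher and lower at E18.5 were 2801 and 2978, but 2267 and 4584 with the length spline and 3641 and 1124 in log2(TPM + 1), whose median gene moved to 0.12.

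The E12.5 count of 34 genes called by edgeR was 28 with upper quartile scaling, 56 with DESeq2 size factors, 1203 with the DESeq2 Wald test, 124 with limma-voom, 244 unfiltered, 9 when a gene needed an average of 1 CPM, 1079 in 1 fit of 14 libraries, 3 with sex as a covariate, 6 in males, 71 without the shallow library, 72 with the length spline, 1 with either TPM pseudocount and 9 with own length offsets. Without 1 library it ran from 0 to 571, with 0 called without dcKO replicate 2 (1790 at unadjusted p under 0.05) or replicate 3 (1723), and 571 without replicate 1. At E12.5 Nfia was -0.50 and Nfib -0.78 with the length spline, and Nfia -0.74 and -0.76 in TPM. Leaving out each library gave -0.71 to -0.60 for Nfia, -1.10 to -0.89 for Nfib, -0.48 to -0.23 for Nfic and -1.02 to -0.81 for Nfix. The stage difference in dcKO on log2 TPM was 0.36 for Nfia, reversed, 1.28 for Nfib, 0.73 for Nfic and 2.12 for Nfix, and in ff -0.59 for Nfia. The causes were not tested. No paired analysis was possible because the columns carry no replicate numbers shared between the groups. TPM of low genes in the shallow libraries is imprecise.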
